A study of Arabidopsis thaliana with 4 samples.

Results

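4 genes that Arabidopsis thaliana induces early under stress were followed through a comparison of the Atdi19-3 mutant with the wild type. They are ERD3 (AT4G19120), FBS1 (AT1G61340), SZF1 (AT3G55980) and ZAT10 (AT1G27730). A probe set was taken as a member when it mapped to exactly 1 of these loci, by the annotation of the array platform or by a single-gene entry in the study's list of genes that were higher in the mutant. The rule found 4 probe sets among the 22746 tested, 1 for each gene, which makes the members 4 of 14273 genes with a named probe set. ZAT10 was named by the platform, which lists it as STZ. ERD3, FBS1 and SZF1 were named only through the study's list, whose entries were selected on these same 4 arrays, so that the direction of their difference is a description and not independent evidence.

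The arrays were Affymetrix ATH1 GeneChips hybridised with biotin-labelled RNA from whole seedlings of the Col-0 ecotype, with 2 biological replicates of the wild type and 2 of Atdi19-3. Atdi19-3 is 1 T-DNA insertion line (SALK_072390) disrupting AtDi19-3, a drought-induced zinc finger gene, the one mutant line analysed here. Seedlings of both genotypes were 10 days old, were grown on half-strength MS medium at 22 °C with 16 h of light and 8 h of dark, and received no stress treatment before harvest. Each value is a log2 GCRMA expression value, and the lowest value on every array was 2.49. In whole seedlings fewer cells of a type and less RNA per cell cannot be told apart.

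The members act at different steps of the stress response. ZAT10, also called STZ for salt tolerance zinc finger, is a C2H2 zinc finger protein of the C1-2i class that represses transcription through an EAR motif and is a substrate of stress-activated MAP kinases. SZF1 is a salt-inducible tandem CCCH zinc finger protein of the arginine-rich (RR-TZF) class, whose members bind RNA and gather in cytoplasmic RNA granules. FBS1 (F-BOX STRESS INDUCED 1) is an F-box protein, the part of an SCF ubiquitin ligase that chooses the target, and it binds 14-3-3 proteins. ERD3 was isolated as a transcript that appears early in dehydration and encodes a putative S-adenosylmethionine-dependent methyltransferase. Transcripts of ZAT10 and SZF1 respond within a short time to salt, cold, wounding and elicitors.

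In the limma fit across all probe sets, 855 of 22746 passed an adjusted p of 0.05, 718 of them higher and 137 lower in Atdi19-3. The arrays differed between genotypes as a whole. Values above 4 made up 7.10% and 8.34% of the probe sets in the 2 wild-type samples against 14.1% and 13.5% in the mutant, and all 18 probe sets for hybridisation spike-ins were lower on both Atdi19-3 arrays. Of 6 control pairs that compare the 3' with the 5' end of a transcript, 5 had a narrower gap in Atdi19-3, such as ubiquitin at 0.60 and 0.71 against 4.41 and 4.09 log2 units in the wild type. These array-wide differences separate the arrays exactly as genotype does, so their share in the values below cannot be told apart from that of the mutation. The split of calls depended on scaling, with 270 higher and 158 lower after quantile normalisation, 901 and 19357 after centring on bright probe sets, and 22740 and 2 after centring on spike-ins. No probe set is named for AtDi19-3 here, so the disrupted gene did not serve as a check of the labels.

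The members separated by genotype. The plot of the members on each array shows both Atdi19-3 values above both wild-type values for 4 of 4 members, a separation that 28.5% of all probe sets shared, with 10.4% separated the other way. FBS1 was the single member called higher by limma, where 3.16% of all probe sets were called higher, 0.602% lower and 3.76% in either direction. All 4 members passed the thresholds that the study states, a log2 difference over 1 with an unadjusted p of 0.05 or less. The p-value was here that of the limma fit, not the study's own. In this fit 6.34% of all probe sets passed on the higher side and 6.7% in either direction. Since 3 of the members were named from a list of genes higher in this same contrast, nothing is read from these counts beyond the values themselves.

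**Figure D1:**
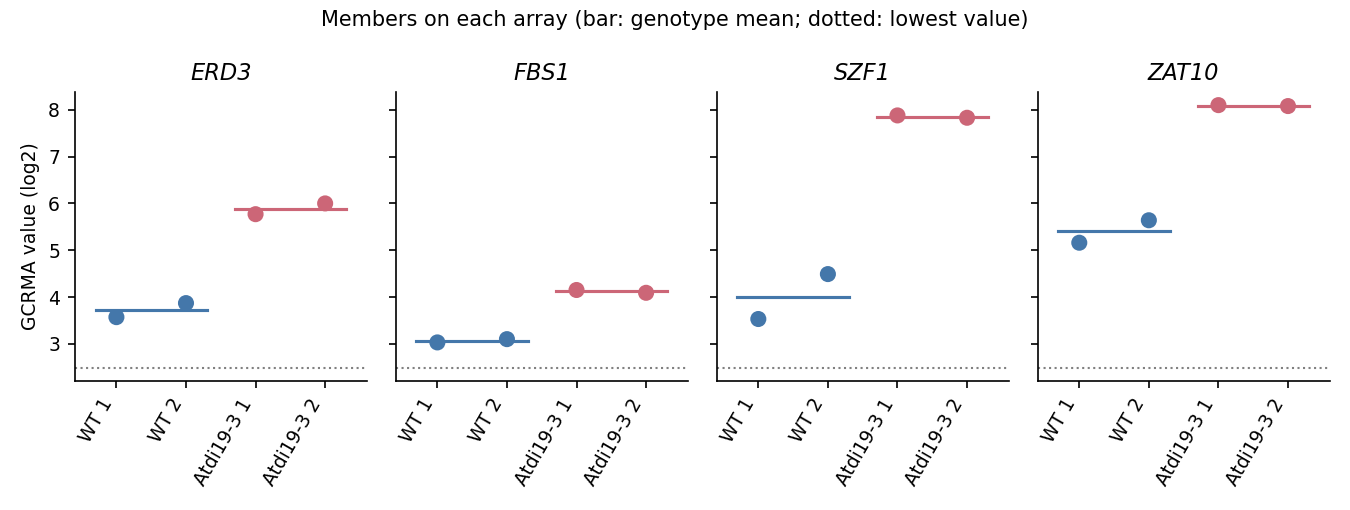
Log2 GCRMA value of ERD3, FBS1, SZF1 and ZAT10 on each of the 4 arrays, with wild type (WT) in blue and Atdi19-3 in red, horizontal bars at genotype means and a dotted line at the lowest value, 2.49. In each panel both red points lie above both blue points, by 0.99 for FBS1 and by 3.34 for SZF1 at the nearest pair.

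ZAT10 read 5.16 and 5.64 in wild-type seedlings against 8.10 and 8.08 in the mutant. It was the member measured over 4 on every array, and both Atdi19-3 values stood well clear of the wild type, with 2.44 log2 units between the nearest arrays. The genotype means were 5.40 ± 0.34 and 8.09 ± 0.0088 (SD, n = 2 each). The difference of 2.69 (standard error 0.22, 95% interval 1.90 to 3.48) corresponded to 6.46-fold, and it missed the threshold of the limma fit at an adjusted p of 0.059. The spread lay in the wild type, whose replicates differed by 0.488 against 0.0125 in Atdi19-3. Among 500 equally bright probe sets, 79.2% had a smaller gap between wild-type arrays than ZAT10, and 3.4% had a smaller gap between Atdi19-3 arrays. Leaving out either wild-type array gave a difference of 2.45 or 2.94 that passed the test (adjusted p 0.0119 and 0.00904), but in those fits the spread between replicates came from the Atdi19-3 pair alone, and the lone wild-type array was assumed to vary like it. Leaving out either Atdi19-3 array gave an adjusted p of 0.279 or 0.265.

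SZF1 had the widest difference of the members. It read 3.53 and 4.49 in wild-type seedlings against 7.88 and 7.83 in the mutant. One wild-type value was over 4 and the other below it, and neither came near the Atdi19-3 pair, the nearest arrays being 3.34 apart. The means were 4.01 ± 0.68 in the wild type and 7.85 ± 0.032 in Atdi19-3 (SD, n = 2 each), a difference of 3.85 (standard error 0.43, 95% interval 2.30 to 5.39) or 14.4-fold. This did not pass the test (adjusted p = 0.087 from limma). The wild-type replicates of SZF1 were 0.956 apart, a gap wider than that of 91.4% of equally bright probe sets, whose median was 0.30, while the Atdi19-3 replicates were 0.0458 apart. Without wild-type replicate 1 the difference was 3.37 (adjusted p = 0.0165), and without wild-type replicate 2 it was 4.32 (adjusted p = 0.0122). Both of those fits took the spread between replicates from the close Atdi19-3 pair alone. Without Atdi19-3 replicate 1 or 2, when the spread came from the wild-type pair, the adjusted p was 0.353 or 0.334.

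FBS1 passed the test on the values as deposited, but not after quantile normalisation or with 1 array fewer. Its values were 3.03 and 3.10 in wild-type seedlings against 4.15 and 4.09 in the mutant. All 4 values were low, with only the Atdi19-3 arrays over 4, but the replicates of either genotype lay within 0.0736 of each other while the genotypes were 0.99 apart. The means were 3.07 ± 0.052 and 4.12 ± 0.038 (SD, n = 2 each), a difference of 1.05 (standard error 0.04, 95% interval 0.91 to 1.20) or 2.08-fold, with an adjusted p of 0.031 from limma. The smallest change of the members was thus the one that passed. Its replicates lay closer together than those of most equally bright probe sets, of which 23.0% had a smaller gap in the wild type and 19.2% in Atdi19-3. The call of FBS1 was lost under quantile normalisation, where its values were 3.14, 3.23, 3.81 and 3.81 and its difference 0.63 (adjusted p = 0.053). Centring each array on its bright probe sets removed nearly the whole difference, leaving 0.09 (adjusted p = 0.608). The call was also lost when any 1 array was left out, with differences of 1.02 to 1.09 and an adjusted p of 0.0503 to 0.15, and with the replicate number as a block (adjusted p = 0.17).

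ERD3 read 3.57 and 3.87 in wild-type seedlings against 5.77 and 6.0 in the mutant. Both wild-type values were under 4 and both Atdi19-3 values over it, with 1.90 between the nearest arrays. The means were 3.72 ± 0.21 and 5.88 ± 0.16 (SD, n = 2 each), which is a difference of 2.16 (standard error 0.17, 95% interval 1.55 to 2.77) or 4.47-fold. ERD3 missed the threshold (adjusted p = 0.057 from limma). Unlike ZAT10 and SZF1, it had similar gaps in both genotypes, 0.299 in the wild type and 0.23 in Atdi19-3, and no array left out brought it past the test, with differences of 2.01 to 2.31.

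RefSeq lists 3 transcripts for ERD3, 2 for FBS1, 2 for SZF1 and 1 for ZAT10. Which of them each probe set reads was not examined. The order of the replicates was shared in part. Wild-type array 2 read above wild-type array 1 for 4 of 4 members, as it did for 40.7% of all probe sets and for 62.6% of the 2334 with a mean over 4, which FBS1 is not among. Atdi19-3 array 2 read above array 1 for 1 of 4 members, ERD3, against 34.2% and 45.3% of those probe sets.

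Since many brighter probe sets read higher in Atdi19-3, each difference was also placed among the 500 probe sets nearest to it in mean over the 4 arrays. In the histograms of equally bright probe sets most of each distribution lay to the right of 0, and each member fell in its upper part. SZF1 stood highest, with a difference above that of 96.0% of its 500 neighbours, and 20 of them equalled or exceeded it. ZAT10 stood above 89.2% and ERD3 above 85.6%, with 54 and 72 neighbours at or above them. FBS1, the member called, stood above 80.8%, with 96 neighbours at or above it. These percentiles are descriptions, with no test. ERD3, FBS1 and SZF1 were named through a list of genes higher on these same arrays. Their place in the upper part, under any match, therefore follows in part from how they were named.

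**Figure D2:**
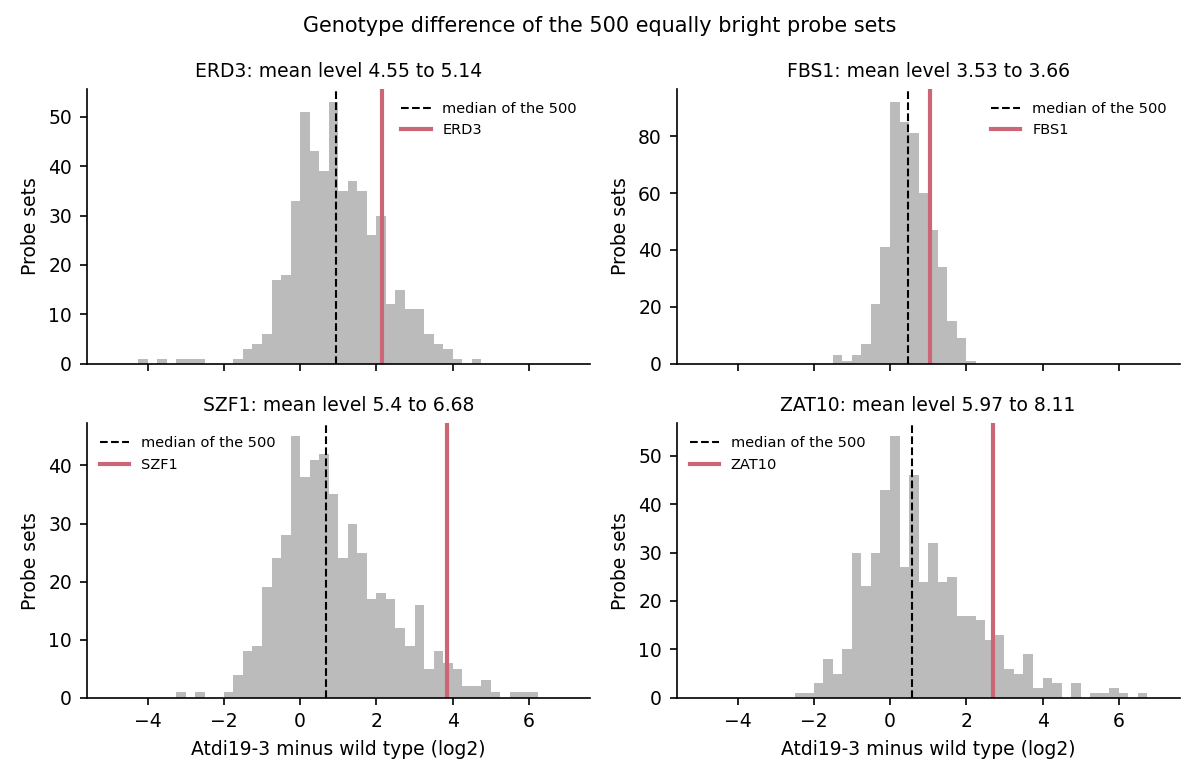
Number of probe sets (vertical axis) by log2 difference, Atdi19-3 minus wild type (horizontal axis), among the 500 nearest to each member in mean level over the 4 arrays. The dashed line is their median, from 0.48 for FBS1 to 0.93 for ERD3, and the solid line is the member, which lies to its right in each of the 4 panels.

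The brightness bands themselves moved with genotype. Around ERD3, at a mean level of 4.55 to 5.14, the median difference was 0.93, 82.6% of the probe sets were higher in Atdi19-3 and 17.4% were called. Around FBS1, at 3.53 to 3.66, the median was 0.48, 84.6% were higher and 7.40% were called. Around SZF1 (5.40 to 6.68) and ZAT10 (5.97 to 8.11) the medians were 0.69 and 0.58, with 72.0% and 69.2% higher and 16.8% and 17.2% called. Set against all probe sets, whose median difference was 0.00, the members' percentiles were higher, at 99.84 for SZF1, 99.24 for ZAT10, 98.48 for ERD3 and 93.48 for FBS1. Matching on the wild-type arrays alone, which leaves the Atdi19-3 values out of the match, gave 98.6, 95.6, 94.6 and 88.6 in the same order of genes.

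The plot of the differences by setting shows how far the size of the members' differences depended on the scale. Quantile normalisation, which gives the 4 arrays the same distribution, left 1.34 for ERD3, 0.63 for FBS1, 3.12 for SZF1 and 1.95 for ZAT10, and called none of them (adjusted p from 0.052 to 0.11, limma). On that scale ZAT10 read 5.71 and 5.96 against 7.77 and 7.78 in Atdi19-3, and SZF1 read 3.92 and 4.83 against 7.53 and 7.46. Centring each array on its bright probe sets lowered all differences by 0.96, which left ERD3 at 1.20, FBS1 at 0.09, SZF1 at 2.89 and ZAT10 at 1.73. Centring on the spike-ins raised all of them by 3.49 and called 22742 of 22746 probe sets, so a member's call there carries no information.

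**Figure D3:**
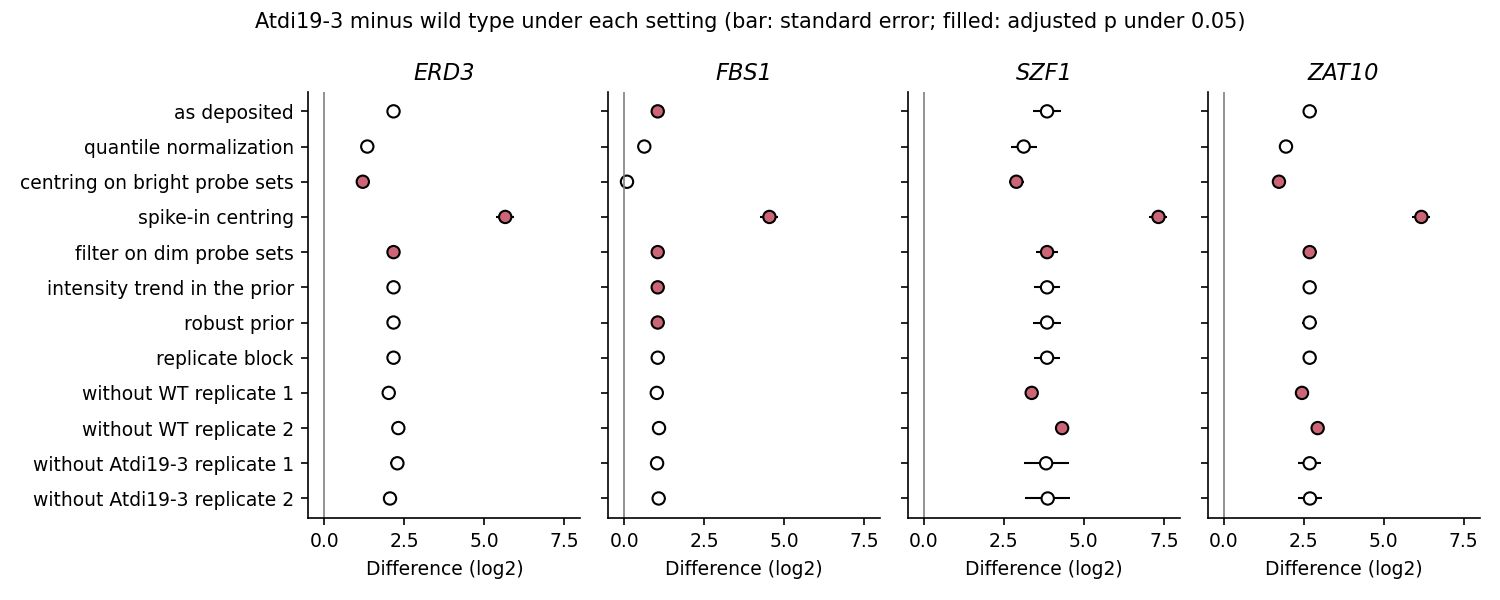
Log2 difference, Atdi19-3 minus wild type (horizontal axis), of ERD3, FBS1, SZF1 and ZAT10 under each setting (rows), with bars for the standard error and filled points at an adjusted p under 0.05. Every point lies to the right of 0, the lowest being FBS1 at 0.09 after centring on bright probe sets, and the farthest right in each panel is centring on the spike-ins.

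The relatives of ZAT10 were mostly near the lowest values. Of 18 C1-2i zinc finger genes, ZAT10 included, 9 had a named probe set and limma called 0 of them. An unadjusted p under 0.05, which 18.5% of all probe sets reached, was found for 4. They were ZAT10, ZAT6 and AZF2, higher in Atdi19-3, and ZAT18, which was lower (difference -0.17). Of the 7 named by the platform, 5 (ZAT5, ZAT9, ZAT14, ZAT17 and ZAT18) read under 3 on every array. The median difference of the 7 was -0.12, or -0.15 without ZAT10. The relatives ZAT6 and AZF2 were named through the study's list and did not pass the test. ZAT6, a regulator of phosphate homeostasis and root growth, read 3.09 and 3.03 against 4.87 and 5.23 in Atdi19-3 (difference 1.99, adjusted p = 0.061). AZF2, a repressor responsive to salt and abscisic acid, read 4.63 and 4.94 against 6.03 and 6.26 (difference 1.37, adjusted p = 0.099), and quantile normalisation brought this to 0.45. AZF1, AZF3 and ZAT12 had no named probe set here.

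Among the RR-TZF genes, the class of SZF1, 4 of 11 were named, SZF1 included, and limma called 0. All 4 had an unadjusted p under 0.05 (18.5% of all probe sets), and 3 of them, SZF1 among these, were named through the study's list. SZF2, the closest relative of SZF1 and like it a negative regulator of salt-responsive genes, read 3.23 and 2.99 against 5.99 and 5.59 in Atdi19-3. That is a difference of 2.68 with an adjusted p of 0.058, and a wild-type value was under 3 and near the lowest value of the arrays. Quantile normalisation brought the difference to 2.06. TZF1 differed by 0.97 (adjusted p = 0.13), with both wild-type values under 3. TZF8, the one named by the platform, read 2.64, 2.75, 2.91 and 2.96, all under 3 (adjusted p = 0.21). The deadenylases CAF1A and CAF1B, which shorten the poly(A) tails of stress transcripts, differed by 2.41 and 2.11 (adjusted p 0.068 and 0.054). Their wild-type values were all under 3. They are outside this class and were also named through the study's list, which fixed their direction.

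Of the FBS family, FBS1 was the single named gene of 4, with FBS2, FBS3 and FBS4 unnamed here. Its known binding partners come from the 14-3-3 and SCF groups, which were read in 1 list together with MAP kinases and the co-repressor TOPLESS (TPL), which EAR-motif proteins recruit. Of 19 genes 11 were named, all through the study's list, so that their direction was fixed by how they were named. Limma called 3 of them higher and 0 lower, against 3.16% and 0.602% of all probe sets, with a median difference of 1.71. Given how they were named, nothing is read from this count. ASK1, the SKP1 subunit that joins an F-box protein to its ligase, read 4.45 and 4.62 against 6.34 and 6.16 (difference 1.71, standard error 0.11, adjusted p = 0.047). The 14-3-3 genes GRF10 and GRF9 rose by 2.18 and 1.46 (adjusted p 0.039 and 0.015). MPK4 differed by 1.06 (adjusted p = 0.28) and TPL, with a wild-type value under 3, by 1.13 (adjusted p = 0.21). After quantile normalisation 0 of the 11 were called.

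ERD3 belongs to a family of putative methyltransferases of the Golgi, of which QUA2 acts in pectin synthesis. Of 28 genes on that list, ERD3 included, 25 were named, 23 of them by the platform and so without use of the study's own selection. Limma called 0 of the 25, with 8, ERD3 among them, at an unadjusted p under 0.05, against 18.5% of all probe sets. The 23 had a median difference of 0.29, from -0.32 to 2.37, and 8 of them read under 3 on every array. The widest difference was that of AT1G26850, at 3.39 and 3.89 against 5.96 and 6.05 in Atdi19-3 (difference 2.37, adjusted p = 0.075), on the same arrays where ERD3 differed by 2.16. AT4G18030 read 4.22 and 4.09 against 5.17 and 5.41 (difference 1.13, adjusted p = 0.082). After quantile normalisation the median of the 23 was 0.05.

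Of 14 ERD genes, ERD3 and those isolated with it from dehydrated plants, 2 were named, ERD3 and ERD8, both through the study's list. ERD8, a cytosolic HSP90 chaperone gene (HSP81-2), rose from 3.01 and 3.11 to 6.56 and 6.12 (difference 3.28, standard error 0.20, adjusted p = 0.044). Near-identical HSP90 copies may share its probe set, and its call was lost after quantile normalisation (2.72, adjusted p = 0.063).

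The plot of related genes shows how the named early stress-response genes split by the source of their name. Of 33 genes on the list 22 were named. Of the 5 named by the platform limma called 0, with 1 at an unadjusted p under 0.05 (18.5% of all probe sets), and their median difference was 0.10. That gene was PUB23, at 2.97 and 3.38 against 4.9 and 4.61 in Atdi19-3 (difference 1.58, adjusted p = 0.12), with a wild-type value under 3. CML37 differed by 0.47 (adjusted p = 0.58), and PUB22 read under 3 on every array. WRKY53, a transcription factor of defence and senescence, read 5.93 and 6.17 against 6.17 and 6.12. The calmodulin-like gene CML38 read 6.93 and 7.66 against 6.27 and 6.45 (difference -0.93, adjusted p = 0.38). Of the 17 named through the study's list 5 were called higher, against 3.16% of all probe sets, with a median difference of 2.04. Since that list holds genes higher in this same contrast, nothing is read from this count. ERF6, an ethylene response factor phosphorylated like ZAT10 by stress MAP kinases, rose from 3.76 and 3.67 to 6.56 and 6.44 (difference 2.78, adjusted p = 0.022). MYB77 rose by 2.73 (adjusted p = 0.043) and SYP121, a plasma membrane syntaxin, by 2.02 (adjusted p = 0.023). ERF104, with both wild-type values under 3, rose by 2.65 (adjusted p = 0.015). DREB2A, which drives dehydration-responsive genes, rose by 1.88 (adjusted p = 0.027). Of these 5, quantile normalisation kept the calls of ERF104, SYP121 and DREB2A, which makes 3. None of 14 genes for abscisic acid and salt responses, such as RD29A and RAB18, had a named probe set here.

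**Figure D4:**
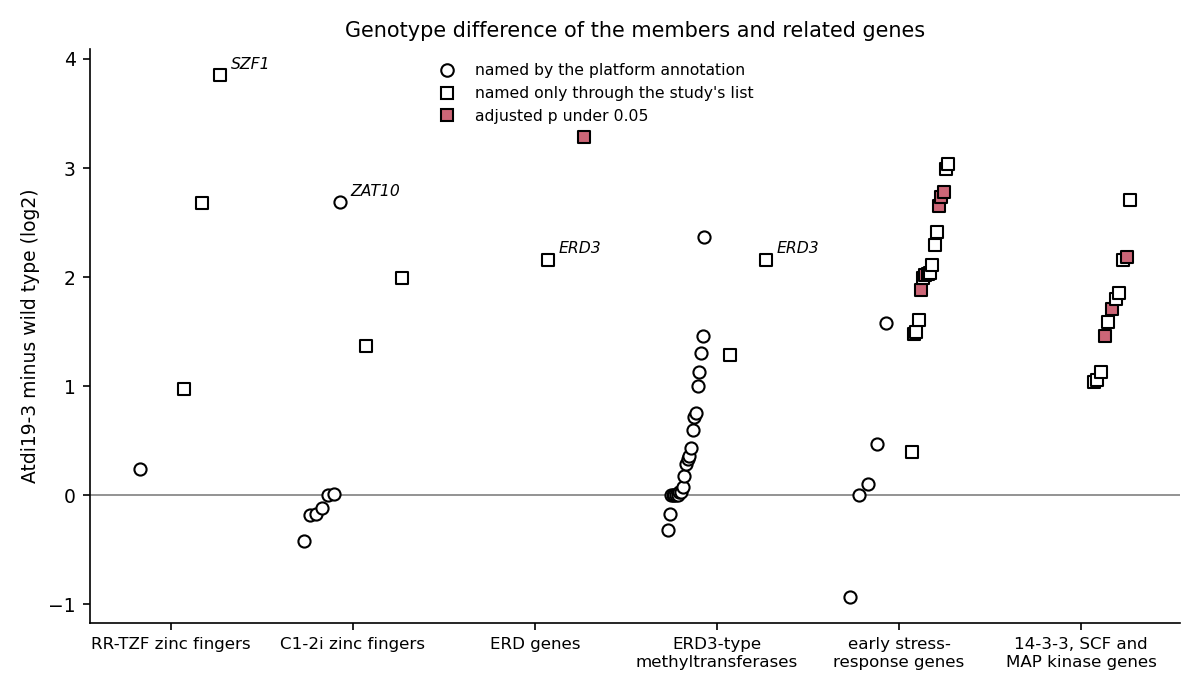
Log2 difference, Atdi19-3 minus wild type (vertical axis), of each named gene in 6 lists (horizontal axis), with circles for genes named by the platform, squares for genes named only through the study's list and filled symbols at an adjusted p under 0.05. Circles gather near 0 with ZAT10 at 2.69 and AT1G26850 at 2.37 as the highest, whereas the squares, whose genes were selected for being higher in Atdi19-3, lie above 0.

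Among probe sets named for 1 gene, those with the most similar pattern were found by the Euclidean distance over the 4 array values, each centred on its own mean. Near ZAT10 were PCK1 (distance 0.04), PEN3 (0.12) and UBC1 (0.15). PCK1 encodes a phosphoenolpyruvate carboxykinase and read 3.55, 4.03, 6.47 and 6.43, so that its wild-type arrays differed in the same sense as those of ZAT10. Near SZF1 were P40 (0.23), a ribosomal protein gene, AT3G11630 (0.25) and FAD2 (0.28), an oleate desaturase gene, and SZF1 was the member with the most distant neighbours. Near FBS1 were AT3G21770 (0.04), AT3G57890 (0.04) and PLC1 (0.05), and near ERD3 were PAB8 (0.10), AT3G08030 (0.10) and AT5G19760 (0.11). Between members the closest pair was ERD3 and ZAT10, at 0.57, and the most distant FBS1 and SZF1, at 2.86. No member was thus among the 3 nearest named probe sets of another. PCK1, PEN3, UBC1, P40, FAD2, PLC1 and PAB8 were themselves named only through the study's list of genes higher in Atdi19-3. With 4 arrays in 2 groups, a small distance says mainly that the genotype difference was of similar size.

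Organ markers were read beside the members. Of 8 leaf markers 4 were named, and their summed linear level was 128.8 and 161.2 in wild-type seedlings against 1334 and 1503 in the mutant. Limma called 2 of the 4 higher, LHCB4.1 and LHCB4.2, against 3.16% of all probe sets. LHCB4.3 differed by -0.66 (adjusted p = 0.086). Of 9 root markers 1 was named, PYK10, at 3.21 and 3.21 against 3.42 and 3.56, and of 9 seed markers none was. The share of leaf tissue in the members' differences was not tested.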

How the data were processed

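Total RNA of 10-day-old seedlings was labelled from 500 ng by the 3' IVT protocol and hybridised to 4 ATH1 arrays, per the labels. The authors deposited log2 expression values after GCRMA, which the submitters' processing notes name together with R 3.4.0. Whether GCRMA was run on the 4 arrays jointly is not stated in the methods or labels, and scans were not analysed here. Of 22810 probe sets, 64 controls were set aside. The remaining 22746 were fitted with lmFit and eBayes (limma 3.58.1, R 4.3.3), Atdi19-3 minus wild type, without covariates and without a filter on low values. P-values were adjusted over all of them (Benjamini-Hochberg), and a probe set was called under 0.05. The prior carried 0.48 degrees of freedom. An exact permutation test of 2 against 2 arrays cannot go below 0.33. P-values weigh the genotype difference against the spread between the replicates the labels call biological, as adjusted by the prior. The number of arrays limits the precision. The fit was tested on simulated data.

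The platform annotation names 1 gene for 13513 probe sets, several for 503 and none for 8730. The study's list of genes higher in Atdi19-3, which was held only in part with 1998 rows used here, names 987 more. The array values carry no genome build, so no coordinates are given. Where the lower genotype had an array under 3, this is said beside the gene's difference. The members and gene lists were chosen with earlier results of these data known. Text genes are the 4 members, from each of 11 lists up to 4 called genes or the 2 of smallest p, the relatives nearest in role, and 3 nearest named probe sets per member. DREB2A, also called, was named beyond this rule. CAF1A, CAF1B, CML37, CML38, LHCB4.3, MPK4, PUB22, PUB23, TPL, TZF8, WRKY53 and the dim C1-2i genes were named after their values were seen. Alternatives covered normalization, filter, prior, threshold, replicate block, brightness match and each array left out.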

Additional observations from a re-analysis of the deposited data

How the results depend on the processing

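With 2 arrays per genotype these results rest on thin replication, and many probe sets lie near the lowest value, where differences are compressed. Of the settings that could turn a difference, quantile normalisation, centring and leaving out an array, none reversed that of a member. FBS1 lost its call after quantile normalisation (0.63), after centring on bright probe sets (0.09) and when any 1 array was left out (1.02 to 1.09). ERD3, SZF1 and ZAT10 crossed the threshold after centring on bright probe sets (1.20, 2.89 and 1.73) or spike-ins (5.65, 7.33 and 6.18). Both settings called most probe sets, so these calls are only described. The first called 901 higher and 19357 lower, the second 22740 higher and 2 lower. ERD3, SZF1 and ZAT10 also did so under the study's thresholds, which use an unadjusted p, and with a filter for values over 4 on 2 arrays (2.16, 3.85 and 2.69). The filter left 3020 probe sets, of which 1935 were called. ERD3, FBS1 and SZF1 met it only through the Atdi19-3 arrays, whereas ZAT10 was over 4 on all 4 arrays. Neither setting is taken as support for the members. With 1 array left out the differences ran from 2.01 to 2.31 for ERD3, 3.37 to 4.32 for SZF1 and 2.45 to 2.94 for ZAT10. Centring moved all differences by -0.96 (bright probe sets) or 3.49 (spike-ins). The count of calls, 855, became 428 after quantile normalisation, 20258 and 22742 after the centrings, 1935 with the filter, 419 with a robust prior, 1524 under the study's thresholds and 0 to 3654 with 1 array left out (0 without either Atdi19-3 array, 3370 and 3654 without wild-type replicate 1 and 2). Replicate numbers did not pair the arrays (r = 0.018 between deviations of same-numbered arrays over 19991 probe sets), and a fit with the replicate block kept FBS1 at 1.05 (adjusted p = 0.17) and called 0 probe sets, with 3638 at an unadjusted p under 0.05. Matching on wild-type brightness moved the percentiles to 94.6 (ERD3), 88.6 (FBS1), 98.6 (SZF1) and 95.6 (ZAT10), and a window of 200 moved FBS1 to 77.5. Calls after quantile normalisation went from 1 to 0 in the FBS family and the ERD genes, from 5 to 3 among early stress-response genes and from 3 to 0 among partners of FBS1 and ZAT10. The causes of these shifts were not tested.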
